A study of Arabidopsis thaliana with 8 samples.

Results

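The genes described here encode 5 nuclear-made proteins of the photosynthetic membrane of Arabidopsis thaliana: LHB1B2 (AT2G34420), PSAN (AT5G64040), PSBY (AT1G67740), PSBW (AT2G30570) and PSB27 (AT1G03600). They were chosen by gene name, as the probes whose platform annotation lists exactly 1 gene and that gene is one of these, and each had 1 probe. Earlier results of these data were known when the choice was made. The genes are 5 of 689 that could be named from such single-gene probes, on an array with 3439 probes. Total RNA came from wild-type plants of the Landsberg ecotype that spent 48 hours in red light at 200 µE (4 arrays) or at 20 µE (4 arrays), and each array was hybridised with 1 sample. Both groups share genotype and duration and differ in the light level alone, as far as the labels say, and the light before those 48 hours is not described. No source used here gives the tissue or the age of the plants, and the light level stands in the labels as µE without area or time. Whether the 4 replicates of a group were separate plants is not said in the labels. The p-values therefore reflect the spread among these arrays, and that spread may be technical.

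Photosystem II splits water and photosystem I passes the electrons on to ferredoxin. Each photosystem has a core, where charge is separated, and an antenna of chlorophyll-binding proteins that feeds it with light energy, and the main antenna of photosystem II is the trimeric complex LHCII. Plants that acclimate to bright light are known to carry a smaller LHCII antenna for each reaction centre than plants kept in dim light. LHB1B2 encodes an LHCB1 protein, a building block of the LHCII trimer, and is the one antenna gene here. PSAN encodes a subunit on the lumen side of photosystem I that helps plastocyanin to deliver electrons. PSBY and PSBW encode small membrane proteins of photosystem II; PSBY is made as a precursor that is cut into a pair of short peptides, and PSBW is needed in Arabidopsis for stable complexes of photosystem II with LHCII. PSB27 is a lumenal factor bound to photosystem II during its assembly and repair, not a subunit of the working complex.

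The comparison asked whether the antenna gene and the genes for photosystem subunits and an assembly factor differed between bright and dim red light, and whether they differed alike. The antenna gene had the largest difference of the 5: LHB1B2 had a lower signal at 200 µE in every same-number pair of arrays, with a mean ratio of 0.451 to 20 µE after normalization, and PSAN, PSBW and PSB27 had mean ratios from 0.862 to 0.898. PSBY, at a mean ratio of 1.28, was the one member with a mean above that of 20 µE on this scale. In the fit across all probes 0 of the 5 passed an adjusted p of 0.05 (limma, Benjamini-Hochberg over 3439 probes). Unadjusted limma p-values were lowest for LHB1B2 (0.0074) and PSAN (0.036). Without the 320 probes at 0 on all arrays that of PSAN was 0.24. Of all probes 6.83% passed the adjusted threshold. The share of all probes with an unadjusted p under 0.05 was not counted, so the unadjusted p-values have no background to be read against. With the replicate number as a block, LHB1B2 alone of the 5 passed, as lower at 200 µE, in a fit where 10.1% of all probes passed as lower.

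Values are intensities on a linear scale, as deposited, in which 1 to 4 probes per array share a maximum of 100.0, or intensities after quantile normalization, which gives every array the same distribution. The scale matters here because the arrays differed as a whole. Among probes above 0 the median intensity was 0.543 ± 0.0337 at 200 µE and 0.305 ± 0.0438 at 20 µE (SD, n = 4 arrays each), and the median deposited log2 difference of the 2600 probes above 0 on all arrays was 0.82. A normalized difference is therefore a difference relative to the other probes. Replicates 1 and 2 also stood apart from replicates 3 and 4 at both light levels. Deviations from the group means correlated between light levels at r of 0.444 to 0.735 within a set and −0.623 to −0.556 across sets. Deviations from a mean add up to 0 in each group, so positive values within a set force negative values across sets. The sets were found in the values and the study does not name them. In RNA of whole samples, fewer cells of a type and less RNA per cell cannot be told apart.

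LHB1B2, the antenna gene, had deposited intensities of 4.99, 6.86, 6.36 and 6.87 in replicates 1 to 4 at 200 µE, against 10.7, 10.5, 24.8 and 21.8 at 20 µE. The highest array at 200 µE lay below the lowest at 20 µE, so the groups did not overlap. The arrays at 200 µE lay closer together than those at 20 µE, with replicate 1 below the others. Those at 20 µE fell into a lower pair, replicates 1 and 2, and a higher pair, replicates 3 and 4. Such a gap with the lower values at 200 µE was seen in 2.15% of the 2600 probes in deposited values and in 11.2% in normalized values. These shares are over probes of all brightness, and 53.8% of the 130 brightest had a mean deposited difference below 0. For LHB1B2 the deposited ratio of 200 to 20 µE was 0.467, 0.653, 0.256 and 0.315 in the 4 same-number pairs.

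**Figure D1:**
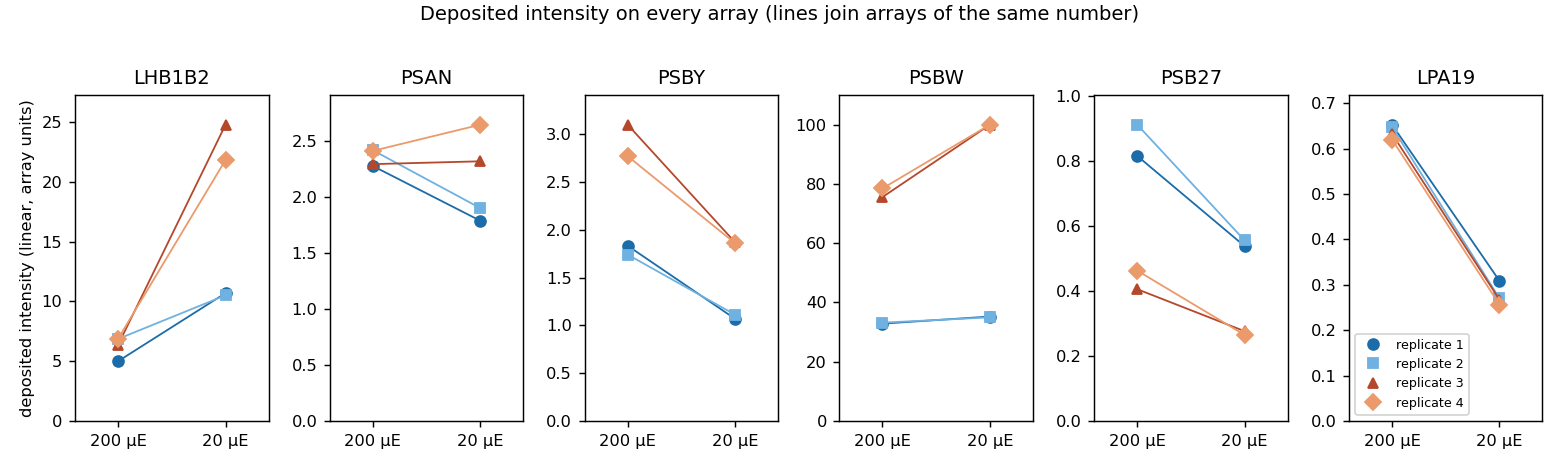
Deposited intensity (linear, array units, axis from 0) of the 5 genes and of LPA19, a relative of PSB27, on each of the 8 arrays, with 200 µE left of 20 µE and lines joining arrays of the same number. LHB1B2 lies lower at 200 µE in every pair and LPA19 higher in every pair, while PSBW and PSB27 differ more between replicates 1 and 2 and replicates 3 and 4 than between light levels.

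After normalization LHB1B2 averaged 6.81 ± 1.01 at 200 µE and 15.8 ± 6.11 at 20 µE (SD, n = 4 each). The log2 difference was −1.15 ± 0.30 (SE; limma, adjusted p = 0.0809), with a 95% interval from −1.87 to −0.43. With the replicate block the difference was the same and its SE 0.21 (limma, adjusted p = 0.0482). Normalized LHB1B2 thus missed the threshold where all 8 arrays were taken as unpaired and passed it narrowly where same-numbered arrays were paired. Its same-number differences were −0.95, −0.59, −1.54 and −1.51. Normalization of so bright a probe follows its rank: at 20 µE replicates 3 and 4 held the same rank from the top and received the same value of 21.1. The probe stood at percentiles 97.9 to 98.4 of its array at 200 µE and at percentiles 98.9 to 99.4 at 20 µE. LHB1B2 has close relatives in the LHCB1 family, and which of their transcripts the probe can bind was not tested.

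PSAN, the photosystem I subunit, had deposited intensities of 2.28, 2.42, 2.29 and 2.41 in replicates 1 to 4 at 200 µE, against 1.79, 1.90, 2.32 and 2.64 at 20 µE. The groups overlapped, and 2 of the 4 pairs were higher at 200 µE and 2 lower, by the set of arrays. After normalization all 4 pairs were lower, by small amounts, with differences of −0.13, −0.05, −0.16 and −0.28. The same sign in all 4 pairs with the lower values at 200 µE was seen in 30.9% of the 2600 probes, so the sign alone says little. The mean difference of −0.15 ± 0.06 (SE) had an adjusted p of 0.229 by limma, with a 95% interval of −0.30 to −0.01. Without the 320 probes at 0 on all arrays, which have no spread and enter the variance shared between probes, the SE was 0.12 and the interval −0.44 to 0.13 (limma, adjusted p = 0.555). PSAN was the steadiest of the 5 across arrays, with normalized means of 2.12 ± 0.107 at 200 µE and 2.36 ± 0.152 at 20 µE (SD, n = 4 each).

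PSBY, the precursor of small photosystem II peptides, had deposited intensities of 1.83, 1.74, 3.10 and 2.77 in replicates 1 to 4 at 200 µE, against 1.07, 1.11, 1.87 and 1.86 at 20 µE. Every array at 200 µE was above its same-number partner, by much the same ratio of 1.72, 1.57, 1.66 and 1.49, yet the groups overlapped because both light levels were higher in replicates 3 and 4. Being higher in all 4 pairs of deposited values was common, in 77.5% of the 2600 probes. After normalization the pairs differed by 0.20, 0.07, 0.65 and 0.49, which varied more between the sets than the deposited ratios did. The mean of 0.35 ± 0.23 (SE) had an adjusted p of 0.513 by limma and a 95% interval from −0.20 to 0.90. With the replicate block the interval was −0.01 to 0.71 (limma, adjusted p = 0.144), and with the sets as a block 0.09 to 0.61 (limma, adjusted p = 0.0666). The sets were found in these same values, so the interval with the sets as a block may be too narrow.

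PSBW, the photosystem II subunit that steadies its complex with LHCII, gave one of the brightest probes on the array. Its deposited intensities were 32.8, 33.2, 75.6 and 78.5 in replicates 1 to 4 at 200 µE, against 35.2, 35.0, 100.0 and 100.0 at 20 µE. All 4 pairs were lower at 200 µE, as in 4.73% of the 2600 probes. That share is over probes of all brightness, and 53.8% of the 130 brightest had a mean deposited difference below 0. PSBW was lower by little in replicates 1 and 2, where the ratios were 0.932 and 0.949. In replicates 3 and 4 the ratios were 0.756 and 0.785, and there the probe sat at the shared maximum of 3 and 4 probes at 20 µE. If that maximum is a cap, these ratios are upper limits; no source used here says how the deposited scale was set. Normalization gave differences of −0.37, −0.34, −0.10 and −0.05, with a mean of −0.21 ± 0.57 (SE; limma, adjusted p = 0.971). In replicates 3 and 4 the probe stood at percentiles 99.94 to 99.97 of its arrays, and both at 200 µE received the same value of 90.6. So near the top, normalization by rank leaves these differences little room, which also bears on the mean and its intervals. The 95% interval from −1.59 to 1.16 is wide because the sets of arrays differ, and with the replicate block it narrowed to −0.44 to 0.01 (limma, adjusted p = 0.149). The direction depended on the scaling, since cyclic loess gave 0.32 for the same arrays.

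PSB27, the assembly factor, was the dimmest of the 5, near the middle of its arrays in replicates 3 and 4. It had deposited intensities of 0.816, 0.912, 0.406 and 0.463 in replicates 1 to 4 at 200 µE, against 0.538, 0.556, 0.276 and 0.265 at 20 µE. Within each pair 200 µE was higher, by ratios of 1.52, 1.64, 1.47 and 1.75, and the groups overlapped because replicates 1 and 2 were the higher set at both light levels. Relative to the rest of the array the pairs lay slightly lower at 200 µE, at −0.25, −0.09, −0.29 and −0.06. The mean of −0.17 ± 0.51 (SE) had an adjusted p of 0.985 by limma and a 95% interval from −1.39 to 1.04. With the replicate block that interval was −0.33 to −0.01 (limma, adjusted p = 0.123).

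**Figure D2:**
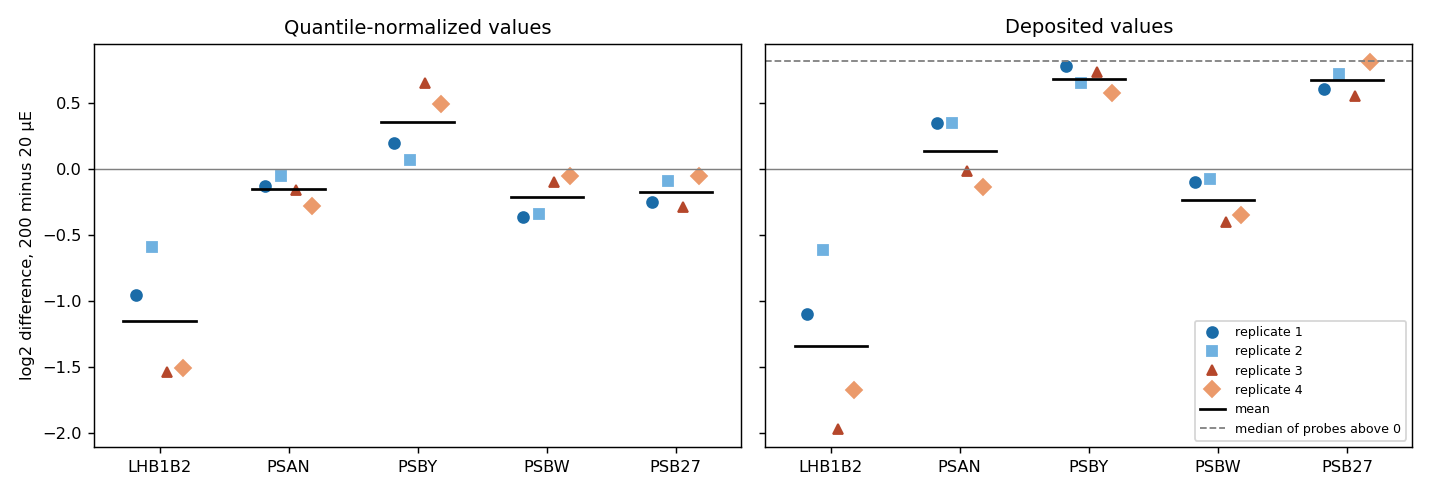
Log2 difference between 200 and 20 µE in each same-number pair (points) and its mean (bars) for the 5 genes, after quantile normalization on the left and in deposited values on the right, where the dashed line marks the median of 0.82 over the 2600 probes above 0 on all arrays. LHB1B2 lies below 0 in all 4 pairs on both scales, and PSBY and PSB27 lie just under the dashed line in deposited values.

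The antenna gene was set against the 4 other genes, the subunits and the assembly factor, as a difference of differences, the light difference of LHB1B2 minus that of another gene in the same pair of arrays. In deposited values a factor common to a whole array cancels in this measure. It shows unequal change and not which gene changed, it rests on 1 antenna gene, and as a score over chosen genes it was given no p. Against the mean of the 4 other genes it was −1.51, −1.02, −2.18 and −1.89 in deposited values of pairs 1 to 4, with a mean of −1.65 ± 0.50 (SD, n = 4 pairs). Over the subunit genes PSAN, PSBY and PSBW alone it was −1.53 ± 0.48 (SD, n = 4 pairs). PSBW sat at the shared maximum at 20 µE in replicates 3 and 4, and if that is a cap the gaps that include it are too large there. With PSBW left out of the mean the deposited gap was −1.83 ± 0.52 (SD, n = 4 pairs), in pairs from −2.39 to −1.19. After normalization the mean over the 4 genes was −1.10 ± 0.53 (SD, n = 4 pairs), with pairs from −1.56 to −0.49. It was −1.14 ± 0.57 over the 3 subunit genes and −1.16 ± 0.51 without PSBW (SD, n = 4 pairs each). Each of these means was below 0 in all 4 pairs on both scales, and leaving out PSB27 or PSBW was chosen after the values were seen.

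Gene by gene, LHB1B2 minus PSAN was −1.47 ± 0.40 in deposited values (SD, n = 4 pairs). LHB1B2 minus PSBW was −0.997 and −0.54 in pairs 1 and 2, and −1.56 and −1.32 in pairs 3 and 4, where the maximum may make the gap too large. Against PSB27 it was −2.01 ± 0.59 and against PSBY −2.02 ± 0.60 (SD, n = 4 pairs each). After normalization the gap was −0.93 ± 0.61 against PSBW, −0.99 ± 0.38 against PSAN, −0.97 ± 0.45 against PSB27 and −1.50 ± 0.71 against PSBY (SD, n = 4 pairs each). The gap against PSBW carries the limit that its top rank sets on normalized values in replicates 3 and 4. With cyclic loess the order was another, with −1.02 against PSB27, −1.09 against PSAN, −1.50 against PSBW and −1.54 against PSBY, so no order among the genes is read from these values. Every pair was below 0 for each of these genes on all 3 scales, and replicate 2 had the smallest gap and replicates 3 and 4 the largest after normalization.

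**Figure D3:**
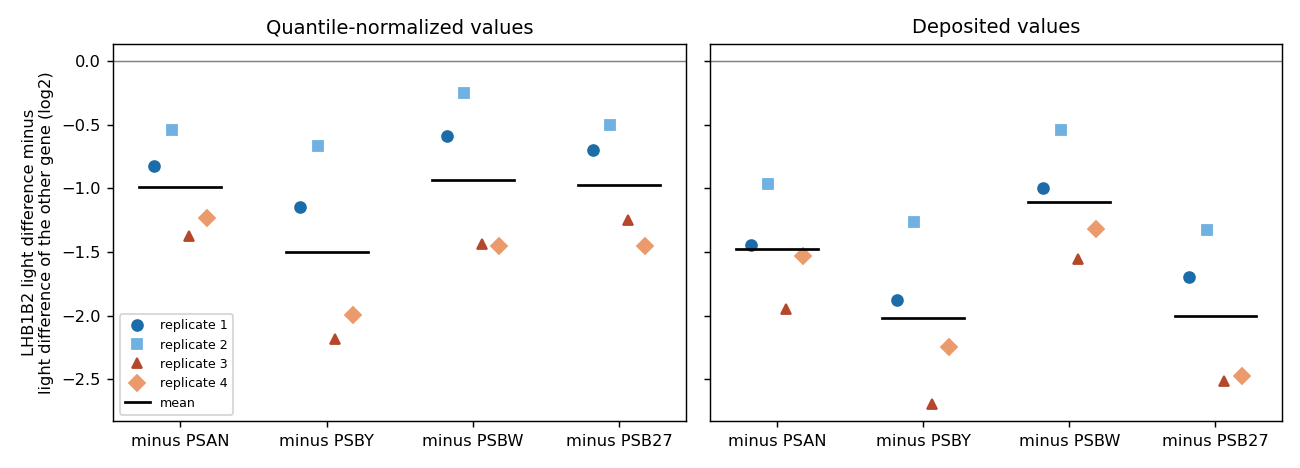
Light difference of LHB1B2 minus the light difference of PSAN, PSBY, PSBW or PSB27 (log2) in each same-number pair (points) with the mean (bars), after quantile normalization on the left and in deposited values on the right. All points lie below 0, from −0.25 to −2.18 on the left and from −0.54 to −2.69 on the right.

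Brightness moved with the deposited difference. The median deposited log2 difference was 1.02 among the 650 dimmest of the 2600 probes, 0.47 among the 650 brightest and −0.11 among the 130 brightest probes, of which 53.8% were below 0. LHB1B2, at percentile 98.5 of brightness, was far below these bright neighbours at −1.34, and 2 of the 130 had a lower value. PSBW, at percentile 99.8, was among them at −0.23, with 54 of the 130 lower. PSAN and PSBY, at percentiles 94.4 and 92.5, had 0.14 and 0.68, and PSB27, at percentile 56.5, had 0.67. Over all 2600 probes LHB1B2 held rank 6 from the lowest in deposited values and rank 109 after normalization. The part of brightness in the smaller or lower values of PSAN, PSBW and LHB1B2 was not tested.

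**Figure D4:**
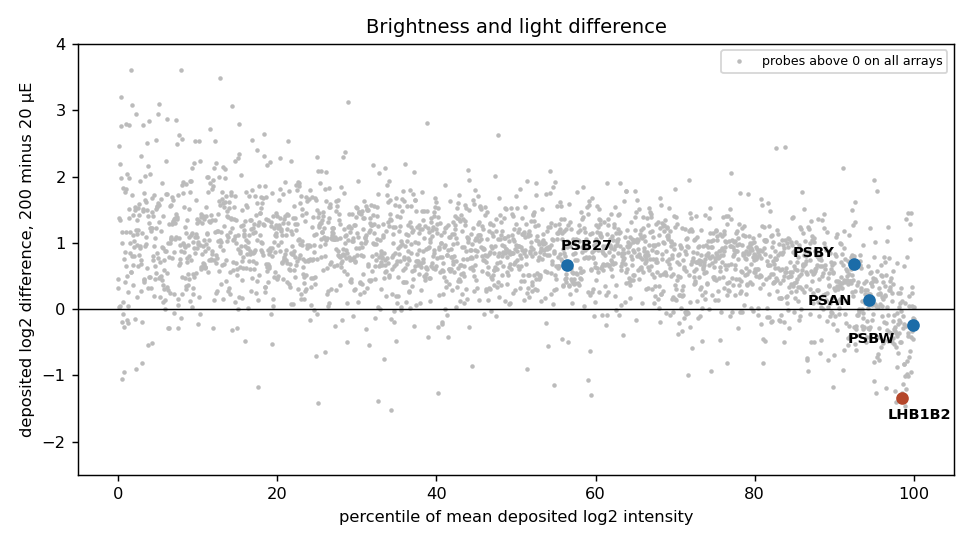
Deposited log2 difference between 200 and 20 µE (vertical axis) against the percentile of mean deposited log2 intensity (horizontal axis) for the 2600 probes above 0 on all arrays, with the 5 genes marked. Most probes lie above 0 and the brightest bend down towards and below 0, with LHB1B2 near the lower edge of the bright probes and PSBW among them.

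For 3 of the 5 genes the sets of arrays differed by more than the light levels on both scales. PSBW was 2.58-fold higher in replicates 3 and 4 than in replicates 1 and 2 in deposited values, a lower limit if the shared maximum is a cap, and PSB27 was 2.01-fold lower there, while PSBY was 1.68-fold higher. Over the 8 arrays PSBW and PSB27 ran opposite, with Pearson's r of −0.94 normalized and −0.90 deposited; these points share the 2 sets, and r is a description. LHB1B2 was also higher in replicates 3 and 4, by 1.57-fold in deposited values, which is less than its light difference. Its normalized light difference averaged −0.77 in replicates 1 and 2 and −1.52 in replicates 3 and 4, and PSBY had 0.13 and 0.57. The set-by-light interaction in limma had an adjusted p of 0.16 for LHB1B2 and of 0.0939 for PSBY. For PSAN, PSBW and PSB27 the interaction estimates were −0.13, 0.28 and 0.00 (limma, adjusted p = 0.716, 0.247 and 1). That of PSBW carries the limit that its top rank sets on normalized values in replicates 3 and 4. Replicates 3 and 4 were also fitted alone, with 2 arrays at each light level. LHB1B2 passed there as lower at −1.50 (limma, adjusted p = 0.00335), as did 9.39% of all probes. Its dim-light arrays in that fit shared a rank, so normalization gave them 1 value, while their deposited intensities were 24.8 and 21.8. The SE of 0.016 takes no account of that spread. Replicates 1 and 2 alone gave −0.85 with an SE of 0.24 (limma, adjusted p = 0.179).

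The call of LHB1B2 rested on the fit and its direction did not. It passed as lower with the sets as a block, where 12.4% of all probes did, with median centring, where 6.46% did, and without normalization, where 1.28% did. The sets were found in these same values, so the p-value with the sets as a block may be too small. Median centring brought PSAN past the threshold as lower too (−0.82; limma, adjusted p = 0.0128). The other 3 genes passed in none of the fits run. Median centring moves every probe of an array by 1 amount, so the lower values of bright probes stay in its differences.

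**Figure D5:**
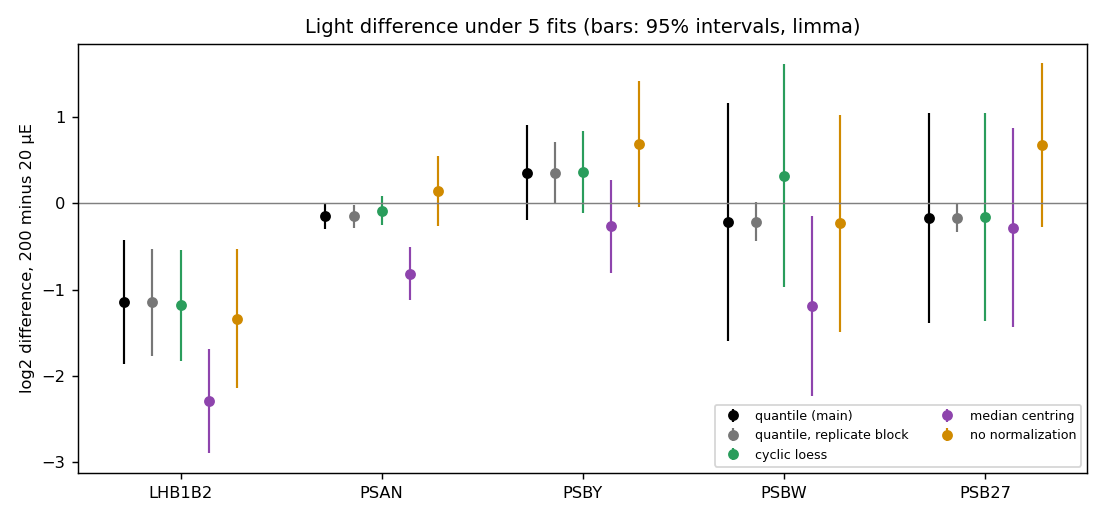
Log2 difference between 200 and 20 µE for the 5 genes in 5 limma fits (points, with 95% intervals as bars). LHB1B2 lies below 0 in all 5, from −1.15 to −2.29, while each of the 4 other genes changes sign in at least 1 fit, and PSBW and PSB27 have wide intervals that the replicate block narrows.

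Of 76 genes in the lists for antennae and their relatives, antenna kinases, photosystem subunits, assembly factors, electron carriers and ATP synthase, 6 lay on single-gene probes, the 5 above and LPA19, and another 8 lay only on probes that list several genes, which were not read. LPA19 encodes a relative of PSB27 that Arabidopsis needs for efficient assembly of photosystem II. It had deposited intensities of 0.653, 0.648, 0.633 and 0.620 in replicates 1 to 4 at 200 µE, against 0.309, 0.270, 0.267 and 0.256 at 20 µE. These groups did not overlap and were tight in both sets of arrays, a pattern of higher values shared by 42.0% of the 2600 probes. The deposited log2 difference of LPA19 was 1.22, above the 0.67 of PSB27. Relative to the array LPA19 differed by 0.31 ± 0.16 (SE) and missed the threshold (limma, adjusted p = 0.379). The replicate block brought it past the threshold as higher at 200 µE (limma, adjusted p = 0.0454), in a fit where 7.91% of all probes passed as higher. It also passed as higher without normalization, as 25.7% of all probes did, with the sets as a block, as 9.25% did, and in replicates 3 and 4 alone, as 9.13% did. Fits by set may give p-values that are too small, because the sets were found in these values. Over the 6 genes 0 passed in the unpaired limma fit, beside 6.83% of all probes. The median difference of the 6 genes was −0.16, beside −0.04 over the 2600 probes. In deposited values that median was 0.40, beside 0.82.

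The labelled material could be checked little by markers. Of 10 genes listed as markers of green tissue, 2 lay on single-gene probes: PRK, an enzyme that regenerates the acceptor of carbon dioxide, was above 0 on all 8 arrays, and SBPASE, another enzyme of that cycle, was listed at 0 on all 8. PRK had normalized intensities of 0.741 ± 0.219 at 200 µE and 0.758 ± 0.15 at 20 µE (SD, n = 4 each). Of 6 markers of roots and non-green cells, 0 lay on single-gene probes, so their share in the samples could not be read.

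Genes with the most similar pattern were taken as the 3 highest of Pearson's r over the 8 arrays, among 534 other single-gene probes above 0 on all arrays. They share the sets and the light levels of the arrays, so each r is a description. For LHB1B2 these were AT3G09080 (r = 0.972), AT3G26630 (r = 0.967) and AT3G04500 (r = 0.958), all with lower means at 200 µE. AT3G26630 had a log2 difference of −1.04, AT3G09080 one of −0.64 and AT3G04500 one of −0.41. PSAN was followed less closely, by FZL, AT4G15840 and AT1G72890 at r of 0.851, 0.845 and 0.834. PSBY was followed by AT4G24750, AT2G44760 and AT1G30700 at r of 0.978, 0.957 and 0.956. For PSBW the closest were DI21, AT4G25290 and CML30 at r from 0.986 to 0.99, and for PSB27 AT5G49840, AT5G40470 and AT2G27290 at r from 0.985 to 0.988. The log2 differences of the 3 near PSB27 were −0.23, −0.14 and 0.0 in that order. AT2G27290 is a bright probe with a normalized geometric mean of 80.3 at both light levels, so its r with PSB27 reflects no light difference of its own. None of the 15 was another photosystem or antenna gene of the lists. Only 6 list genes lay on single-gene probes, so few could have appeared among the 534 and their absence says little.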

How the data were processed

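The authors deposited 1 intensity for each probe and array, and no source used here says how it was made. The linear scale, the maximum of 100.0 and the values of 0 (476 to 604 probes per array) were read from the values. Groups and replicate numbers came from the labels. A value of 0 was raised to the smallest positive value on its array, arrays were quantile normalized, and limma 3.58.1 in R 4.3.3 was run on the log2 values (lmFit, eBayes, 200 minus 20 µE, two-sided, Benjamini-Hochberg over 3439 probes, threshold 0.05). The code was tested on simulated data. The 320 probes at 0 on all arrays stayed in the fit. No probe of the 5 genes was at 0 on any array. Deviations from the group means of same-numbered arrays correlated at r of 0.707 to 0.735 over 2600 probes (0.444 to 0.462 for other numbers within a set, −0.623 to −0.556 across sets). The negative values across sets follow from centring each group on its mean once those within a set are positive. Numbers were treated as pairs in the same-number differences and in the replicate block. The limma fit without a block was unpaired, because the labels do not state that numbers pair the arrays. Genes were named from the platform annotation and the RefSeq table of TAIR10.1, which matched 690 of 692 single-gene probes; no coordinates are given because the values name no build. Named genes are the 5 members, all list genes on single-gene probes, and the 3 closest in pattern to each member. Members and lists were chosen with earlier results of these data known. Alternatives were 3 other scalings, filters on dim probes, a pseudocount of 0.1, blocks for replicate number and set, each set alone, and leaving out each array. The number of arrays limits the precision.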

Additional observations from a re-analysis of the deposited data

Results flagged for a closer look

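LHB1B2 on the 200 µE array of replicate 1 lay apart from the other 3 arrays of its group, with a normalized log2 value of 2.40, while the others averaged 2.87. The gap made up 0.914 of the range of the group. It was 1 such array in 14 groups of 4 examined, where chance flags about 1 in 20. Without that array the log2 difference of LHB1B2 was −1.02 (limma, adjusted p = 0.177).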

How the results depend on the processing

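LHB1B2 was lower at 200 µE under all 19 alternatives, but many of these could hardly change its direction. The filters on dim probes and the blocks change the SE and leave the estimate at −1.15. Because the groups did not overlap, fits on fewer arrays had little room to turn the sign. It passed the limma threshold without normalization (−1.34, adjusted p = 0.0317), with median centring (−2.29, 0.00542), with the replicate block (−1.15, 0.0482), with the sets as a block (−1.15, 0.0117) and in replicates 3 and 4 alone (−1.50, 0.00335). Because the sets were found in these values, p-values from fits by set may be too small. The fit of replicates 3 and 4 alone had 2 arrays at each light level, and LHB1B2 was tied by rank in dim light. Its SE there therefore leaves out the deposited spread of those arrays. Cyclic loess gave −1.18 (limma, adjusted p = 0.0546). Leaving out single arrays gave −1.32 to −0.98 (adjusted p from 0.0743 to 0.177). PSAN turned to 0.14 without normalization and passed as lower with median centring (−0.82; limma, adjusted p = 0.0128), and without single arrays ran from −0.19 to −0.11. PSBY turned to −0.27 with median centring, and without single arrays ran from 0.20 to 0.49. PSBW turned to 0.32 with cyclic loess, and without single arrays ran from −0.49 to 0.079. PSB27 turned to 0.67 without normalization, and without single arrays ran from −0.43 to 0.068. For PRK, −0.05 in the unpaired fit, the value was 0.71 without normalization and −0.24 to 0.073 without single arrays. Of the 6 light-reaction genes, LHB1B2 and LPA19 passed with the replicate block and not without it. The difference between LHB1B2 and the mean of the 4 other genes, −1.10, became −1.65 without normalization or with median centring, −1.14 without PSB27 and −1.16 without PSBW in the mean (both chosen after the values were seen), and −1.24 to −0.95 without single arrays. Of the 6 light-reaction genes, 2 passed instead of 0 without normalization, with median centring, with either block and in replicates 3 and 4 alone, and 0 without any single array. Over all probes 235 passed (79 higher, 156 lower), against 927 (883 higher, 44 lower) without normalization, 258 (36 and 222) with median centring, 619 with the replicate block, 746 with the set block, 343 in replicates 1 and 2 alone and 637 in replicates 3 and 4 alone. Dropping probes at 0 on all arrays gave 144, at 0 on any array 156, the lowest 25% 146, and single arrays 140 to 174. Dropping probes changes the shared variance and the number adjusted for; for the other changes the cause was not tested. Signal over background was not analysed here.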
